A study of Drosophila melanogaster with 72 samples.

Results

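Odorant-binding protein genes were followed in heads of Drosophila melanogaster that expressed mutant huntingtin (mHTT), the protein with an expanded glutamine tract that causes Huntington's disease. The members were all genes of the deposited table whose symbol starts with Obp and a number, which gave 39 of 13557 genes. The groups were repo-GAL4/+; UAS-HTTNT231Q128/+ at 5, 7 and 8 days (glial N-terminal), repo-GAL4/+; UAS-HTTFLQ200/+ at 18, 20 and 22 days (glial full-length), elav-GAL4/+; UAS-HTTNT231Q128/+ at 7, 9 and 11 days (neuronal N-terminal), and elav-GAL4/+; UAS-HTTFLQ200/+ at 18, 20 and 22 days (neuronal full-length). Each had controls of the same age that carried the driver alone (repo-GAL4/+ or elav-GAL4/+). GAL4 is a yeast activator that switches on UAS transgenes, repo-GAL4 in glia and elav-GAL4 in neurons, and mHTT flies and controls both carry the driver. Flies were kept at 28 °C, except for neuronal full-length flies and their controls at 29 °C. Every group had 3 poly(A) RNA libraries of 50 heads each, which made 72 libraries, and heads came from frozen flies that were shaken and sieved. Neither the sex of the flies nor the number of lines behind a construct is given, and nothing says whether libraries of a group came from separate cultures, so p-values measure the spread between these libraries.

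Odorant-binding proteins are small secreted proteins that hold hydrophobic molecules in an inner pocket. In the antenna, support cells of the olfactory sensilla release them into the lymph that bathes the sensory neurons, where they carry or buffer odorants near the receptors. Many genes of the family are used elsewhere: in taste bristles of the mouthparts and legs, in the fat body and haemolymph, in glia, and in the male reproductive tract. Several lie in tandem clusters that arose by gene duplication.

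Values are the authors' gene estimates scaled to an upper quartile of 1000 in each library. They are not divided by gene length. All changes below are differences of log2(value + 1), mHTT minus control, averaged over the 3 ages of a model unless an age is named, with the standard error (SE) of the fit. Genes that reached 10 in 3 or more libraries were tested with limma, and a gene is called changed at a Benjamini-Hochberg adjusted p under 0.05 over all genes tested. Of the libraries, 71 had summed values between 16.61 M and 23.75 M (M, mega) and an estimated depth of 35.0 M to 46.7 M reads. The remaining library, replicate 2 of the day 11 neuronal controls, stood apart. It summed to 39.28 M, had 3223 genes at 0 against 1073 to 1782 in the others, and was the only one whose description began with V31614. It also held the highest value of the 72 libraries for Obp56e (118265), Obp99c (105440), Obp44a (56960) and Obp99a (22461). Counts of called members and several named changes of the neuronal N-terminal model are therefore given with and without it. Other values of that model, such as marker sums and comparisons with other models, include it unless stated.

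The family covered the whole range of expression in these heads. Means over the 72 libraries were at least 1000 for 10 members and at least 100 for 18, and below 10 for 16. Per kilobase of exon, in the BDGP6 annotation of Ensembl, Obp56e ranked first with 42910 units, followed by Obp99c with 23160, Obp56d with 22350 and Obp44a with 7646. Obp56g (6878), Obp57c (6457), Obp99a (5341), Obp56a (4606) and Obp49a (3454) came next on that scale. At the other end, 11 members reached the test in no fit. They were Obp47b, Obp50a, Obp50b, Obp50c, Obp50e, Obp56c, Obp58b, Obp58c, Obp58d, Obp85a and Obp93a, of which Obp56c had the highest mean at 4.17. Most of these belong to the Plus-C branch of the family, which has additional cysteines. Obp50b and Obp50c had identical values in all 72 libraries, so they give 1 measurement.

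**Figure D1:**
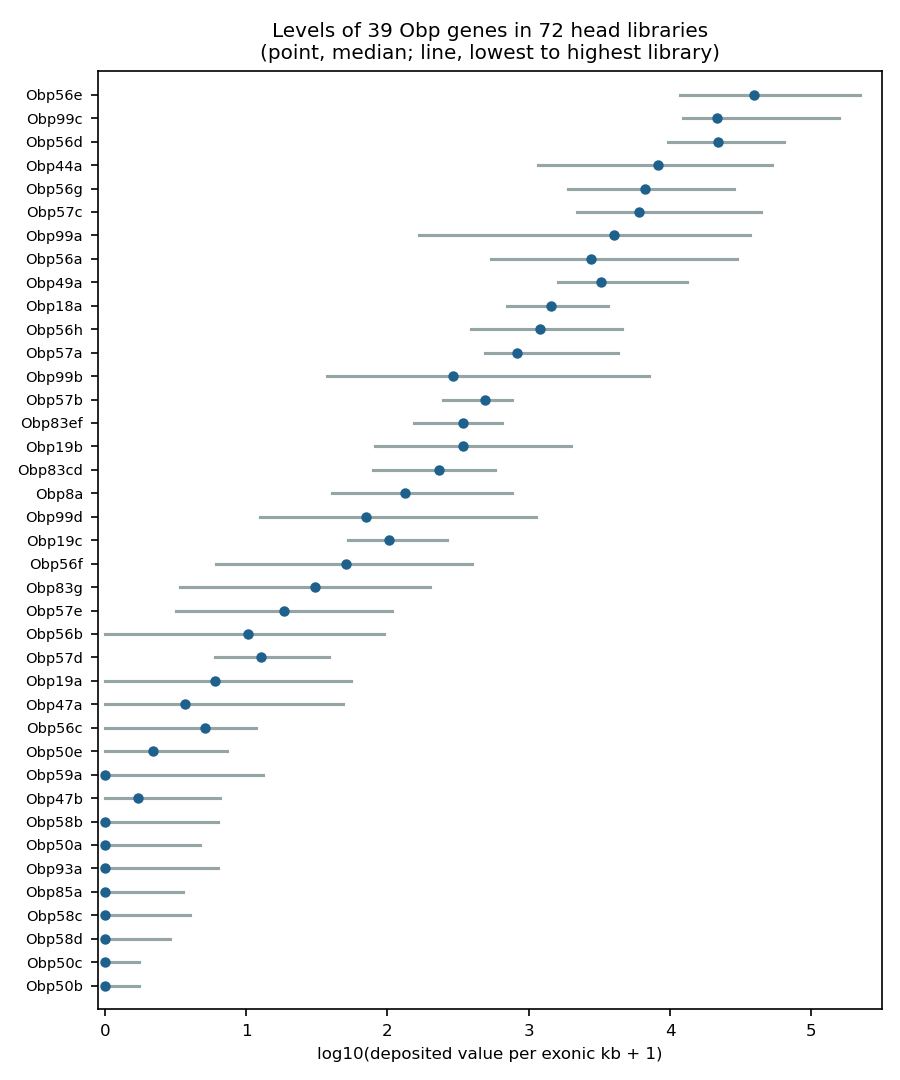
Deposited value per exonic kilobase for the 39 Obp genes over 72 libraries, as log10(value per kb + 1), ordered by mean. Points are medians and lines run from the lowest to the highest library: Obp99a, Obp99b and Obp99d have wide ranges, and 9 genes have a median of 0.

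Of the 39 genes, 25 lie on chromosome arm 2R, 9 on 3R and 5 on X in that annotation. The longest cluster holds 8 genes, Obp56a to Obp56h. Its levels were far from even: Obp56e and Obp56d were among the most abundant transcripts of the head, at ranks of 99.3% and 99.1% of all genes, whereas Obp56b averaged 8.07 and Obp56c 4.17. Exons of Obp56e, Obp99c and Obp44a overlap an antisense gene (asRNA:CR44509, Gycalpha99B and Pabp2), and Obp83cd and Obp83ef overlap each other on opposite strands. The library kit keeps strand, but whether the authors' counting used it is not given in the sources used here, so reads of such pairs may not be separated. Obp57d shares exon sequence with Cpr57A on the same strand.

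The classical antennal binding proteins carry older symbols in this table (Pbprp1 to Pbprp5, Os-E, lush) and are not among the 39. Their levels were low, with medians over the 72 libraries of 5.90 for Pbprp3, 7.08 for Os-E, 35.9 for lush and 37.1 for Pbprp5. Pbprp2 was the exception, with a median of 10643. Orco, the co-receptor of most odorant receptors, had a median of 37.5, and a5, an antennal carrier, was at 0 in 58 libraries. Levels were uneven within both kinds of gene: of members listed for the antenna Obp56d and Obp56e were abundant, and of those listed for taste organs Obp57c and Obp49a were abundant and Obp56b and Obp57e scarce.

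Members were called in each model, mostly lower with the N-terminal fragment in glia and mostly higher with the full-length protein in glia. Over the ages, 12 of 25 tested members (48%) were called with the N-terminal fragment in glia, against 32.5% of all genes, and 20 of 26 (76.9%) in the glial full-length model, against 44.4%. In the neuronal models 5 of 25 (20%, N-terminal) and 5 of 24 (20.8%, full-length) were called, against 13.6% and 18.9% of all genes, so the neuronal full-length share was near that of all genes. The split was 1 higher and 11 lower in glial N-terminal heads (20.4% and 12.1% of all genes) and 17 higher and 3 lower in glial full-length heads (19.3% and 25.1%). It was 1 higher and 4 lower in neuronal N-terminal heads (6.03% and 7.53%) and 3 higher and 2 lower in neuronal full-length heads (9.4% and 9.54%). The median change of the tested members was -0.36, 0.57, -0.03 and -0.06 in these 4 models in that order, and that of all genes was 0.06, -0.04, 0.01 and 0.001. Leaving out the outlying library, 14 of 24 tested members were called in neuronal N-terminal heads (7 higher, 7 lower), against 36.8% of all genes. Without replicate 1 of the day 22 mHTT libraries 9 of 24 were called in neuronal full-length heads (5 higher, 4 lower), against 35.7%, again a share near that of all genes. In neuronal full-length heads the split turned to 2 higher and 3 lower with quantile normalisation. In all, 24 members were called in at least 1 model, and 0 were called in the same direction in all 4. The 20 called in glial full-length heads include Obp47a and Obp83g, which passed the filter there through mHTT libraries alone.

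**Figure D2:**
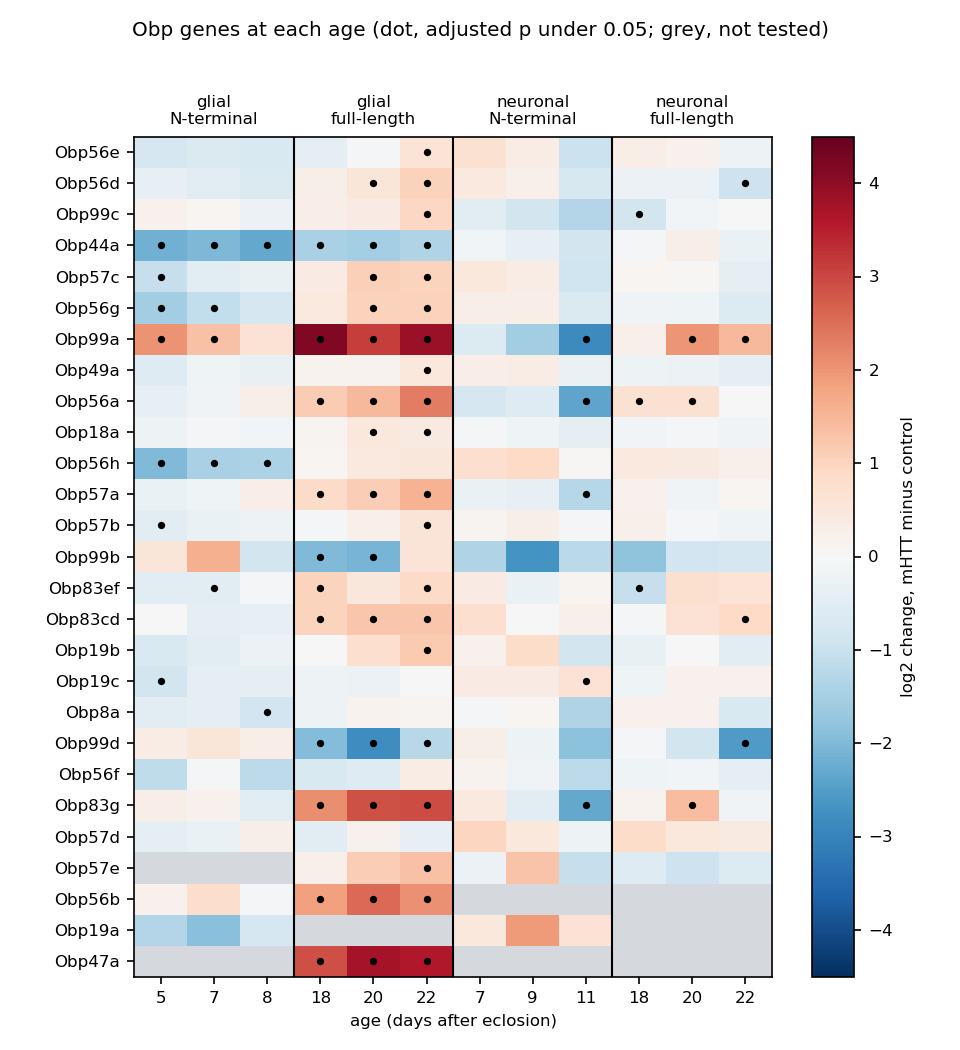
Change of each tested Obp gene at each age as log2(value + 1), mHTT minus control, with genes ordered by mean level. Dots mark adjusted p under 0.05 and grey cells were not tested. Obp44a is lower at all 6 glial ages, and Obp99a is called higher at 5 of them and is -2.86 in day 11 neuronal N-terminal heads.

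Obp44a encodes a lipid carrier made by glia of the fly brain. In glial N-terminal heads it ranged between 1705 and 4094 (median 2130, n = 9), against 7136 to 13446 in controls (median 10062, n = 9). Every mHTT library lay below every control library, and the change was -2.16 (SE 0.13, adjusted p = 4.21e-09), which is 4.45-fold lower. In glial full-length heads it ranged between 1246 and 2810 (median 2411), against 3352 to 9492 in controls (median 5695). The arms again did not overlap, with a change of -1.45 (SE 0.16, adjusted p = 2.065e-06), which is 2.73-fold lower.

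Obp44a was lower at each of the 6 glial ages taken singly, with changes of -2.15, -2.02 and -2.29 at days 5, 7 and 8 and of -1.47, -1.53 and -1.34 at days 18, 20 and 22. With mHTT in neurons the arms overlapped. Neuronal N-terminal heads ranged between 7575 and 13925, against 8912 to 56960 in controls, where the highest value without the outlying library was 14406. The change was -0.44 (SE 0.28, adjusted p = 0.3295), and -0.17 without that library. Neuronal full-length heads ranged between 3755 and 10419, against 6690 to 11672 in controls, with a change of -0.03 (SE 0.15, adjusted p = 0.914). The change of Obp44a differed between drivers for both constructs, by 1.71 (SE 0.28, adjusted p = 3.804e-06) for the N-terminal fragment and by 1.41 (SE 0.28, adjusted p = 0.0001099) for the full-length protein, neuronal minus glial.

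Glial marker genes were mostly called lower in both glial models. Of 10 markers, 10 were lower in glial N-terminal heads, where 12.1% of all genes were lower. Their summed level there ranged between 23980 and 27220, against 38470 to 45710 in controls. Gs2 and Eaat1 weigh most in the sum, with means of 15347 and 6709 over all libraries. Among the markers wrapper, of cortex glia, averaged 85.5 in mHTT heads and 1441 in controls. With full-length mHTT in glia, 6 were lower and 2 higher, against 25.1% and 19.3% of all genes. The sums overlapped, at 32230 to 37170 against 32240 to 42730 in controls. In neuronal N-terminal heads 1 was higher and 0 lower, with sums of 42800 to 48790 against 25480 to 46830 in controls, and in neuronal full-length heads 1 was higher and 0 lower, with 20710 to 42070 against 33280 to 41870. Of all genes 13.6% and 18.9% were called in neuronal N-terminal and neuronal full-length heads. In whole heads, fewer cells of a type and less RNA per cell cannot be told apart, and the part of glial markers in the change of Obp44a was not tested.

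Obp99a is a binding protein found in haemolymph. For glial full-length heads, it ranged between 3006 and 10768 (median 8111, n = 9), against 102 to 1123 in controls (median 593, n = 9). The arms were far apart, with a change of 3.72 (SE 0.21, adjusted p = 7.572e-10), which is 13.2-fold higher. At day 18 the mHTT libraries had 3870, 3550 and 3006, against 102, 205 and 339 in controls. The day 20 libraries had 8114, 8111 and 6740, against 1053, 1068 and 625. Those of day 22 had 10768, 8295 and 10169, against 593, 417 and 1123. Each age was called, with changes of 4.16, 3.10 and 3.89.

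With the N-terminal fragment in glia, Obp99a was also higher, at 1909 to 6195 (median 2882), against 418 to 3005 in controls (median 1202). The arms overlapped over the ages and at day 8, but not at days 5 and 7, and the change was 1.34 (SE 0.24, adjusted p = 0.0004926). Under elav-GAL4 with full-length mHTT, it ranged between 1784 and 5270 (median 4325), against 845 to 2629 in controls (median 1584). The arms overlapped, and the rise of 1.22 (SE 0.17, adjusted p = 0.0002036) was called at days 20 (2.002) and 22 (1.45) and not at day 18 (0.22).

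Under elav-GAL4 with the N-terminal fragment, Obp99a was lower instead. It ranged between 776 and 4836 (median 1319), against 2386 to 22461 in controls (median 4672), with a change of -1.68 (SE 0.32, adjusted p = 0.002823). Without the outlying control library the controls ranged between 2386 and 5872, and the change was -1.38 (SE 0.16, adjusted p = 9.004e-06). The day 7 mHTT libraries had 1970, 3755 and 4836. Those of day 9 had 1319, 1271 and 1364, and those of day 11 had 1043, 859 and 776. Libraries of days 9 and 11 were all below every control of their age. The day 7 libraries overlapped theirs (5872, 4807 and 4672).

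**Figure D3:**
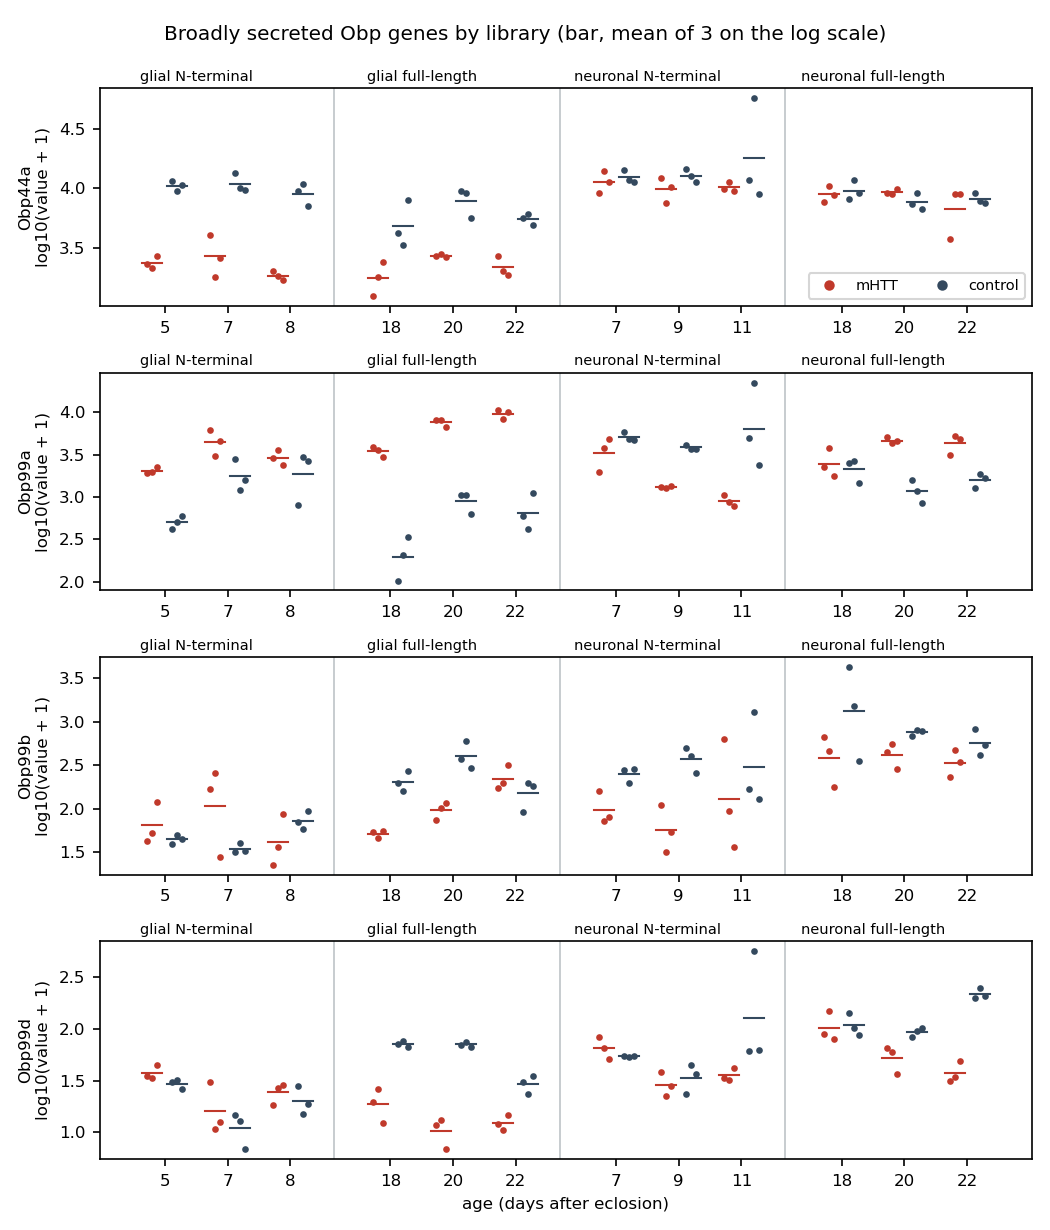
Values of Obp44a, Obp99a, Obp99b and Obp99d in each library as log10(value + 1), by model and age, with mHTT (red) left of control (dark) and bars at the mean of 3. Obp44a is apart from its controls at every glial age, and 1 neuronal control library at day 11 (56960 for Obp44a) lies above all others.

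Obp99b and Obp99d lie beside Obp99c in a cluster. Obp99b is known for male-biased expression in the fat body of the head. In glial full-length heads Obp99b ranged between 45.2 and 319 (median 101), against 92.0 to 605 in controls (median 198). Its change was -1.16 (SE 0.18, adjusted p = 7.925e-05) and differed between ages (adjusted p = 0.01972). It was called lower at days 18 (-1.98) and 20 (-2.08). At day 22 the libraries had 172, 198 and 319, against 92.0, 198 and 181 in controls. For neuronal N-terminal heads, it ranged between 30.6 and 625, against 127 to 1299 in controls. That change of -1.76 (SE 0.54, adjusted p = 0.0451) was near the threshold. It was -1.41 (adjusted p = 0.01822) without the outlying library, but the call was lost under 15 of 29 alternative settings, with adjusted p up to 0.09197. For neuronal full-length heads, the change of -1.14 (adjusted p = 0.0551) was not called.

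Obp99d had a median of 35.0 over the 72 libraries, with values from 5.82 to 566. With full-length mHTT in glia, it ranged between 5.88 and 25.2, against 22.2 to 75.8 in controls, with a change of -1.998 (SE 0.17, adjusted p = 7.327e-08). In neuronal full-length heads it ranged between 30.4 and 147, against 82.7 to 251 in controls, with a change of -1.16 (SE 0.16, adjusted p = 0.0001265). There the fall was not even over the ages (adjusted p = 0.01967 for a difference between ages): at day 22 the libraries had 30.4, 32.9 and 48.4, against 197, 251 and 209 in controls. Obp99c, among the most abundant members, rose by 0.54 (SE 0.10, adjusted p = 0.0004964) in glial full-length heads, with 15095 to 22343 against 8899 to 17974 in controls. Neuronal N-terminal heads had 8200 to 14980 of Obp99c, against 11837 to 105440 in controls, a change of -0.87 (SE 0.33, adjusted p = 0.1062) that was -0.54 (SE 0.12, adjusted p = 0.002392) without the outlying library. Of the broadly secreted list (Obp44a and Obp99a to Obp99d), 2 of 5 were higher and 3 lower in glial full-length heads, with a median change of -1.16. In the other models 2 of 5 were called each time, as 1 higher and 1 lower in glial N-terminal, 0 higher and 2 lower in neuronal N-terminal, and 1 higher and 1 lower in neuronal full-length heads. The shares of all genes called in these models were 44.4%, 32.5%, 13.6% and 18.9% in the order given.

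Yp1, Yp2 and Yp3, which encode yolk proteins, and fit are expressed more in females than in males. All 4 were higher in glial full-length heads, where their sum ranged between 882600 and 1841000, against 242900 to 637900 in controls. In neuronal N-terminal heads all 4 were lower (571800 to 1309000, against 937200 to 3028000). For glial N-terminal heads, 1 of 4 was lower (393200 to 1277000, against 669600 to 1909000), and in neuronal full-length heads 1 of 4 was lower (370200 to 1243000, against 528000 to 938400). Of 5 male-biased genes, 2 were higher and 2 lower in glial full-length heads, and 2 were higher and 1 lower in neuronal N-terminal heads. In glial N-terminal heads 3 were higher and 2 lower, and in neuronal full-length heads 1 was lower. Of all genes 44.4%, 13.6%, 32.5% and 18.9% were called in these 4 models in that order.

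Fat body genes were called in each model. Of 8 markers listed, 4 of 6 tested were higher in glial full-length heads, against 19.3% of all genes higher, including Lsp2, a storage protein, at 81268 against 5212 in controls. Their sum there was 264400 to 481700, against 89580 to 167700 in controls. Under elav-GAL4 with the N-terminal fragment, 1 was higher and 2 lower, with sums of 137900 to 221100 against 217100 to 318800 in controls. With the N-terminal fragment in glia, 1 was higher and 2 lower (95650 to 168700, against 113100 to 208400), and in neuronal full-length heads 1 was higher and 2 lower of 7 tested (136200 to 340300, against 174000 to 276200). Of all genes 13.6%, 32.5% and 18.9% were called in these 3 models in that order. Fbp1 and Fbp2, larval fat body proteins, were low, with medians of 6.78 and 2.48 over the 72 libraries and highest values of 22.5 and 13.2. The part of sex ratio and of fat body in the changes of Obp99a to Obp99d was not tested.

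**Figure D4:**
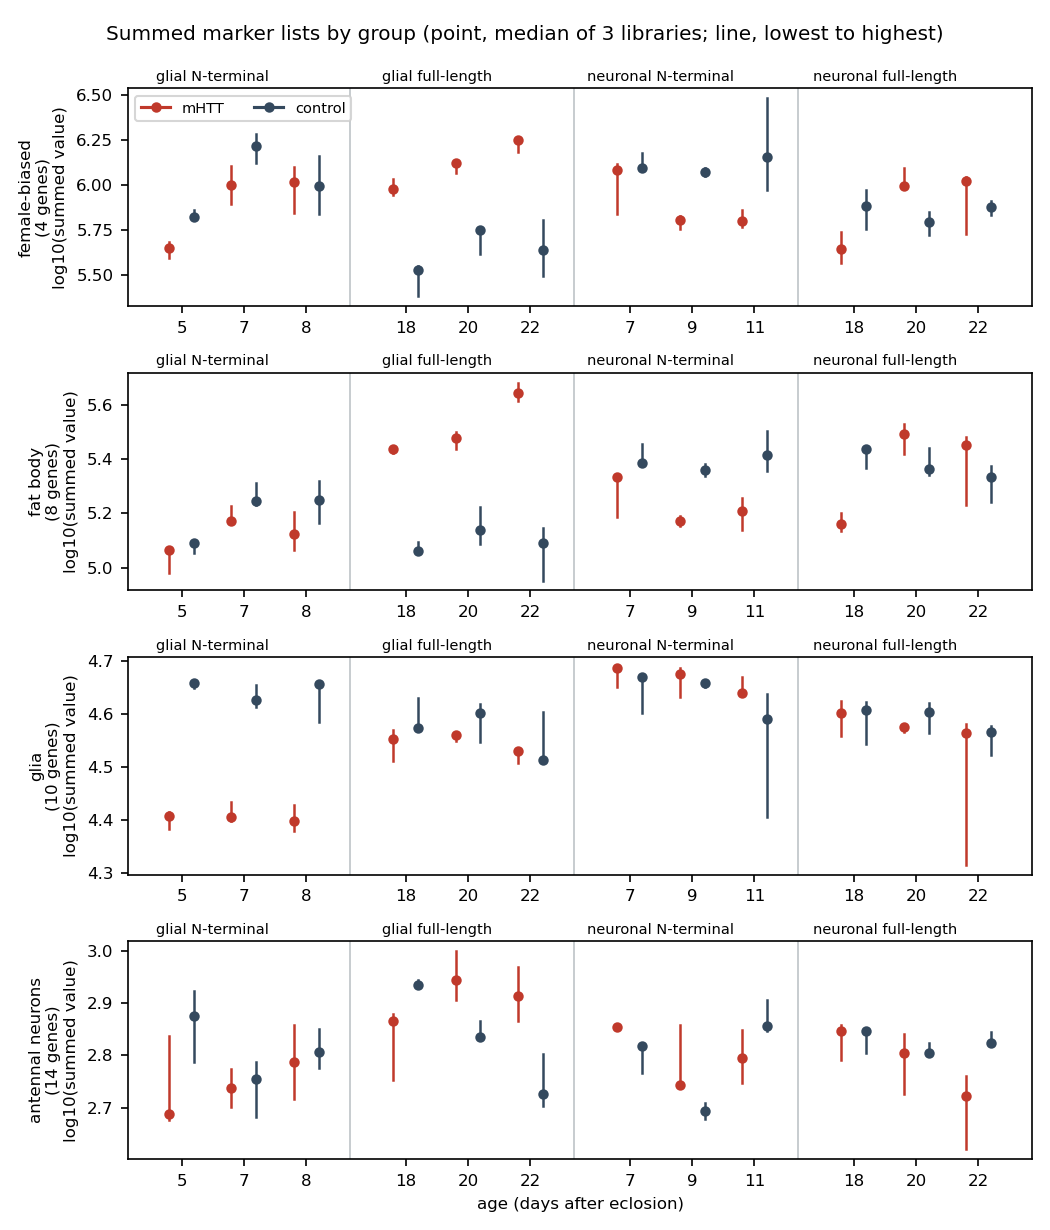
Summed values of 4 marker lists as log10, by model and age, with mHTT (red) left of control (dark). Points are medians and lines the range of 3 libraries. Female-biased and fat body genes are above control in glial full-length heads (882600 to 1841000 against 242900 to 637900 for the first list) and glial genes are below control in glial N-terminal heads.

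The Obp56 cluster holds members of olfactory, gustatory and reproductive use. For glial full-length heads, Obp56a ranged between 3385 and 6467 (median 3686), against 896 to 1860 in controls (median 1319). No mHTT library reached down to a control, and the rise was 1.64 (SE 0.10, adjusted p = 1.33e-09), which is 3.11-fold. At day 22 it had 5772, 5470 and 6467, against 1085, 1793 and 896 in controls. Under elav-GAL4 with full-length mHTT, it ranged between 3108 and 6407, against 2643 to 4597 in controls, a rise of 0.46 (SE 0.10, adjusted p = 0.004869), or adjusted p = 0.05675 in a fit of all 72 libraries.

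Neuronal N-terminal heads had less Obp56a, with 817 to 1200 (median 969), against 1279 to 16363 in controls (median 1786). The arms did not overlap, and the change was -1.24 (SE 0.27, adjusted p = 0.006077), or -0.96 (SE 0.07, adjusted p = 8.233e-08) without the outlying library. For glial N-terminal heads, the change was -0.09 (adjusted p = 0.6094), with 297 to 916 against 366 to 786 in controls.

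Obp56h affects male courtship and cuticular hydrocarbons. In glial N-terminal heads it ranged between 256 and 705.4 (median 455), against 877 to 1689 in controls (median 1479). All mHTT libraries were below all controls, and the change of -1.62 (SE 0.16, adjusted p = 1.113e-06) was called at each of the 3 ages. In glial full-length heads it was slightly higher, at 525 to 1156 against 599 to 990 in controls, with a change of 0.35 (SE 0.13, adjusted p = 0.03515). Without replicate 1 of the day 22 controls it was 0.33 (adjusted p = 0.05059). For neuronal N-terminal heads, it ranged between 485 and 1417, against 230 to 2733 in controls (adjusted p = 0.1043). Without the outlying library the controls reached 788 and the change was 0.77 (SE 0.11, adjusted p = 3.816e-05).

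Obp56g, a seminal fluid protein, and Obp56d, which occurs in antennae and mouthparts, changed in opposite directions in the glial models. Obp56g fell by 1.16 (SE 0.20, adjusted p = 0.000301) in glial N-terminal heads, with 939 to 3134 against 2872 to 5209 in controls. It rose by 0.83 (SE 0.15, adjusted p = 0.0003419) in glial full-length heads, with 2401 to 5059 against 1623 to 3685 in controls. Obp56d fell by 0.51 (SE 0.14, adjusted p = 0.01219) in glial N-terminal heads, with 9336 to 20797 against 12955 to 24547 in controls. With full-length mHTT in glia, Obp56d rose by 0.61 (SE 0.06, adjusted p = 2.617e-07) without overlap, with 20128 to 29896 against 12461 to 18726 in controls. That rise differed between ages (adjusted p = 0.04257) and was called at days 20 and 22. For neuronal full-length heads, Obp56d fell by 0.48 (SE 0.13, adjusted p = 0.01572), with 8864 to 25099 against 20414 to 29262 in controls. Both falls of Obp56d lost their call in libraries of 1 description prefix, H57779, alone (-0.38, adjusted p = 0.08098, and -0.28, adjusted p = 0.07478).

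Obp56e, the most abundant member, fell by 0.69 (SE 0.16, adjusted p = 0.003793) in glial N-terminal heads, with 6291 to 18056 against 12759 to 22564 in controls. For glial full-length heads, its change over the ages was 0.04 (adjusted p = 0.7461), or 0.36 (adjusted p = 0.001027) in the H57779 libraries alone, which cover days 20 and 22 only, and it was called at day 22 alone (0.62). Obp56b, a taste-organ gene, was low but separate in glial full-length heads, at 21.4 to 53.8 against 1.76 to 14.5 in controls, and rose by 2.16 (SE 0.25, adjusted p = 3.262e-06).

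In the Obp57 group Obp57a, Obp57c and Obp57e were called higher in glial full-length heads, and Obp57b (0.24, adjusted p = 0.08287) and Obp57d (-0.23, adjusted p = 0.3442) were not called. Obp57a ranged between 751 and 1101 (median 844), against 282 to 489 in controls (median 371). The arms did not overlap, and the rise of 1.18 (SE 0.07, adjusted p = 7.572e-10) was called at days 18 (0.86), 20 (1.12) and 22 (1.56). Obp57c rose by 0.82 (SE 0.10, adjusted p = 6.996e-06), with 2644 to 5527 against 2006 to 3420 in controls. With the N-terminal fragment in glia, Obp57c fell by 0.63 (SE 0.15, adjusted p = 0.003951), with 1233 to 2970 against 2430 to 4120. In neuronal N-terminal heads Obp57a fell by 0.65 (SE 0.10, adjusted p = 0.0004873), with 304 to 469 against 427 to 1124 in controls. Without the outlying library its change was -0.56 (SE 0.054, adjusted p = 1.057e-06).

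Obp49a, which gustatory bristles use for the suppression of sweet taste by bitter compounds, changed by -0.37 (SE 0.11, adjusted p = 0.01542) in glial N-terminal heads, with 1303 to 2919 against 2040 to 2557 in controls. In glial full-length heads it changed by 0.26 (SE 0.08, adjusted p = 0.01262), with 2119 to 3340 against 1758 to 2744. Neither call held when all 72 libraries were fitted together. Of the taste-organ list of 9 genes, 7 of 9 tested were higher and 0 lower in glial full-length heads, with a median of 0.65, where 19.3% of all genes were higher and 25.1% lower. For glial N-terminal heads, 0 were higher and 4 of 8 lower, with a median of -0.36, where 12.1% of all genes were lower. Among neuronal N-terminal heads, 1 of 8 was lower, against 7.53% of all genes, and in neuronal full-length heads 0 of 8 were called by limma, against 18.9%. Obp57d and Obp57e, which shape responses to fruit acids, had means of at most 25.1 in any arm.

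**Figure D5:**
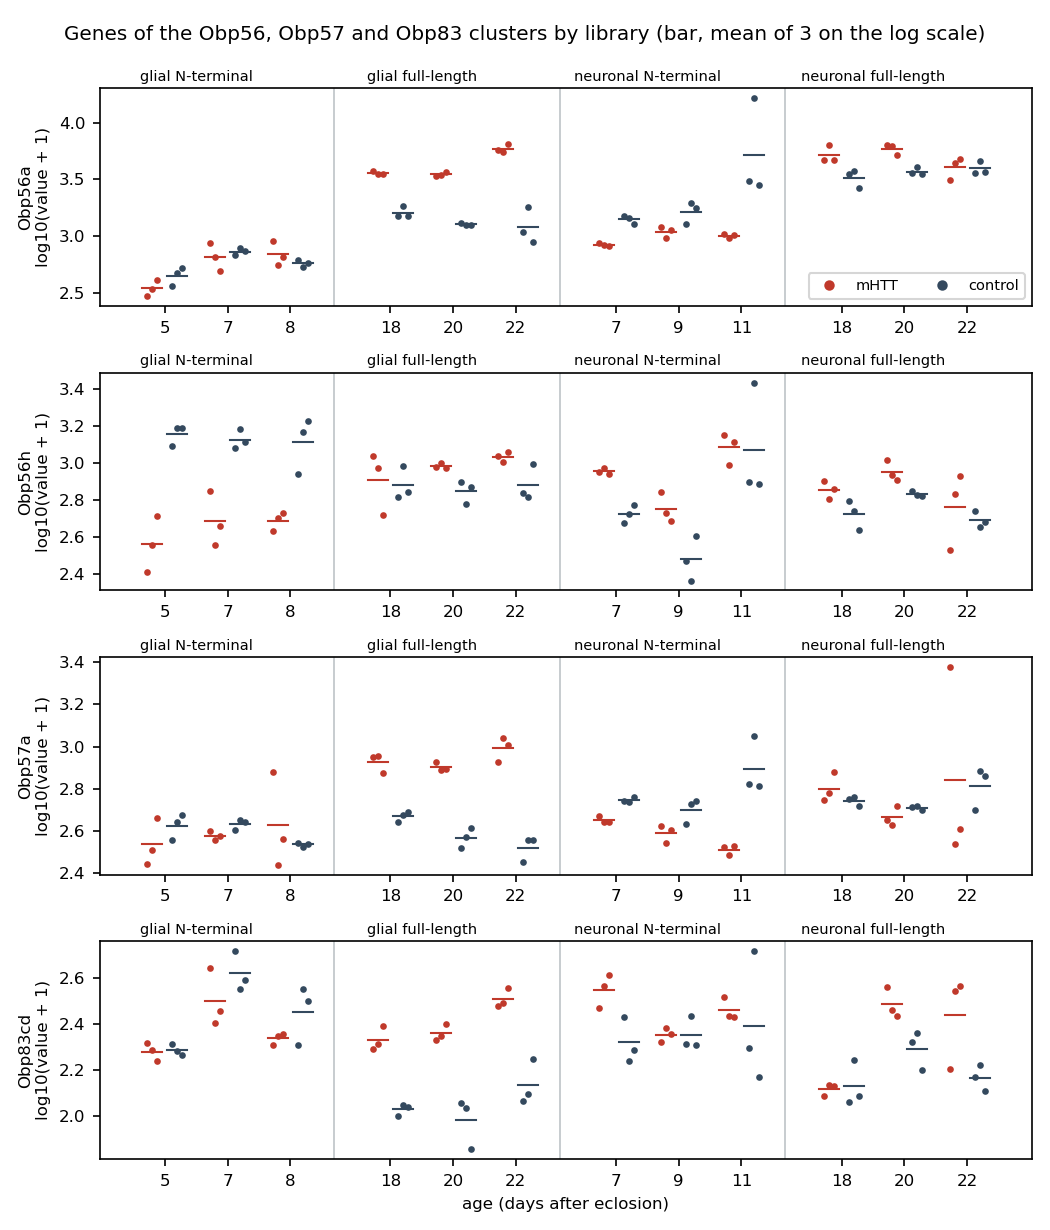
Values of Obp56a, Obp56h, Obp57a and Obp83cd in each library as log10(value + 1), by model and age, with mHTT (red) left of control (dark) and bars at the mean of 3. With full-length mHTT in glia, Obp56a (3385 to 6467 against 896 to 1860), Obp57a and Obp83cd are apart from control, and in glial N-terminal heads Obp56h is.

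Obp83cd and Obp83ef are double-domain members that overlap on opposite strands. For glial full-length heads, Obp83cd ranged between 195 and 359 (median 244), against 70.6 to 176 in controls (median 110). It rose without overlap by 1.17 (SE 0.10, adjusted p = 1.074e-07). In neuronal full-length heads Obp83cd rose by 0.50 (SE 0.15, adjusted p = 0.03133), with 121 to 367 against 114 to 227 in controls, a call lost under 11 of 29 alternative settings, most of which leave out 1 library. Under elav-GAL4 with full-length mHTT, the change of Obp83ef differed between ages (adjusted p = 0.02887). At day 18 Obp83ef had 145, 138 and 182 in mHTT heads, against 372, 351 and 251 in controls. At day 22 it had 242, 464 and 455, against 288, 246 and 198.

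Among members of low level, Obp47a was near 0 in controls and present in glial full-length heads, at 5.89 to 23.7 (median 13.7), against 0 to 1.37 in controls (median 0). Its change of 3.42 (SE 0.31, adjusted p = 1.851e-07) was called at days 18, 20 and 22. Values of this size correspond to few reads, as 1 read was worth about 0.455. Obp83g rose by 2.63 (SE 0.28, adjusted p = 1.022e-06) there, with 17.7 to 47.2 against 1.36 to 8.48 in controls. Obp19c was called in both N-terminal models in opposite directions. It changed by -0.54 (SE 0.10, adjusted p = 0.0006582) in glial N-terminal heads, with 56.2 to 122 against 92.0 to 130. It changed by 0.47 (SE 0.11, adjusted p = 0.008721) in neuronal N-terminal heads, with 128 to 259 against 103 to 183. Without the outlying library that change was 0.52 (SE 0.095, adjusted p = 0.0005216). The other called members were Obp8a, Obp57b and Obp83ef, lower in glial N-terminal heads by 0.35 to 0.59, and Obp18a, Obp19b, Obp57e and Obp83ef, higher in glial full-length heads by 0.33 to 0.88. Obp19a, Obp56f, Obp57d and Obp59a were tested and called in no model over the ages, and Obp59a passed the filter in the 72-library fit alone.

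Without overlap of the arms, 8 members were higher and 1 lower in glial full-length heads, and 0 were higher and 2 lower in glial N-terminal heads. The 8 include Obp47a and Obp83g, which passed the filter through mHTT libraries alone. Of all genes tested, 6.12% were higher and 4.33% lower in this way in the glial full-length model, and 4.6% and 2.78% in the glial N-terminal model. Under elav-GAL4 with the N-terminal fragment, 0 were higher and 1 lower, and in neuronal full-length heads 0 were apart in either direction, against 2.22% higher and 2.36% lower, and 1.1% higher and 1.39% lower, of all genes. Libraries whose descriptions began with H57779 were most frequent, and in these alone, which for the glial full-length model are 8 libraries of days 20 and 22, several changes were close: for Obp44a -2.14 and -1.57 in the glial N-terminal and full-length models, for Obp99a 1.52 and 3.67 in those models and -1.46 and 1.58 in the neuronal ones, in the same order, for Obp56h -1.46 in the glial N-terminal model and for Obp56a 1.55 in the glial full-length model. In these libraries alone the calls of Obp49a in glial N-terminal heads (-0.28, adjusted p = 0.08877) and of Obp99b in neuronal N-terminal heads (-1.63, adjusted p = 0.05051) were lost, as were those of Obp56d named above. What this first part of a description stands for is not given.

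At single ages, the members called in glial N-terminal heads were 7 at day 5, 5 at day 7 and 3 at day 8, against 13.5%, 17.8% and 10.5% of all genes. The shares of tested members at days 7 (20%) and 8 (12%) were close to those of all genes. Leaving out 1 library moved the day 7 count to 2 to 11. In glial full-length heads 11, 14 and 20 members were called at days 18, 20 and 22, against 20.2%, 20.4% and 31.5% of all genes. For neuronal N-terminal heads, limma called 0 members at days 7 and 9 (1 and 5 at unadjusted p under 0.05) and 5 at day 11, against 1.98%, 4.32% and 7.77%. Without the outlying day 11 library these counts were 8, 10 and 8, against 14.2%, 23.8% and 18.6% of all genes. All ages of a model share 1 estimate of spread. For neuronal full-length heads, 3, 3 and 4 were called at days 18, 20 and 22, against 9.2%, 4.14% and 7.65%. Leaving out 1 library moved these counts to 0 to 4, 1 to 6 and 2 to 7. The highest came without replicate 1 of the day 22 mHTT libraries, where 25.8%, 14.9% and 13.9% of all genes were called, and the 0 without replicate 1 of the day 18 controls. The lowest at day 20 came without any 1 of the 6 libraries of that day, and at day 22 without replicate 1 or 2 of its controls. The change differed between ages for 2 members in glial full-length heads (Obp99b and Obp56d) and 2 in neuronal full-length heads (Obp99d and Obp83ef), against 0.864% and 0.731% of all genes. It differed for 0 members in glial N-terminal heads (0 at unadjusted p under 0.05) and 0 in neuronal N-terminal heads (7 at unadjusted p under 0.05), against 0.27% and 0.00984%.

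Models were compared through the difference of their changes in a fit of all 72 libraries, in which 28 members were tested. The models differ in age as well as in construct, and neuronal full-length flies also in temperature, and these cannot be told apart. Between glial constructs, full-length minus N-terminal, 21 of 28 members differed (75%), against 28.1% of all genes, with 19 above 0 and a median of 1.14. Obp99a differed by 2.38 (SE 0.37, adjusted p = 7.423e-07) and Obp56g by 1.99 (SE 0.27, adjusted p = 3.365e-08). Obp99b differed by -1.61 (SE 0.59, adjusted p = 0.03484). Between neuronal constructs 2 of 28 differed (7.14%), against 15.6% of all genes: Obp99a by 2.90 (SE 0.37, adjusted p = 4.078e-08) and Obp56a by 1.70 (SE 0.24, adjusted p = 4.639e-07). Without the outlying library 6 differed, a count given without the share of all genes in that fit. Leaving that library out raised the share of all genes called over the ages in neuronal N-terminal heads from 13.6% to 36.8%. The 6 are therefore not read as a result about the members.

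Between drivers with the full-length protein, neuronal minus glial, 17 of 28 members differed (60.7%), against 21% of all genes, and 16 of them were below 0. Obp99a differed by -2.49 (SE 0.37, adjusted p = 3.936e-07) and Obp56a by -1.18 (SE 0.24, adjusted p = 0.0001416), and Obp44a was the 1 member above 0. Between drivers with the N-terminal fragment 15 differed (53.6%), against 29.6%, with 10 above 0. Obp56h differed by 2.19 (SE 0.25, adjusted p = 3.859e-10), Obp99a by -3.02 (SE 0.37, adjusted p = 3.167e-09) and Obp99b by -2.20 (SE 0.59, adjusted p = 0.003289).

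Several members differed between older and younger control heads. These came from separate cohorts of flies, so age and cohort cannot be told apart. In glial-driver controls of days 18 to 22 against days 5 to 8, 13 of 28 members were called (46.4%), against 24% of all genes, with 4 higher (13.9% of all genes) and 9 lower (10.1%). Obp83cd ranged between 70.6 and 176 in older controls and between 183 and 518 in younger controls (n = 9 each), without overlap and with a change of -1.34 (SE 0.15, adjusted p = 6.471e-10). Obp99a averaged 614 ± 388 in older and 1510 ± 1062 in younger controls (SD, n = 9 each), a change of -1.28 (SE 0.26, adjusted p = 0.0001133). Obp99b averaged 263 ± 152 in older and 50.3 ± 20.1 in younger controls, a change of 2.26 (SE 0.42, adjusted p = 2.569e-05). Obp56a averaged 1386 ± 314 in older and 590 ± 132 in younger controls, without overlap and with a change of 1.23 (SE 0.17, adjusted p = 7.857e-08). These are the same control libraries that the mHTT comparisons used.

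In neuronal-driver controls of days 18 to 22 against days 7 to 11, which also differ in temperature, 10 of 28 members were called (35.7%), against 28.1% of all genes, with 4 higher (15.7%) and 6 lower (12.4%). In a fit of these controls alone, 1 was called, a count given without the share of all genes in that fit and so not read as a result about the members. Obp99a averaged 1666 ± 593 in older controls (n = 9), and 4290 ± 1049 in younger controls without the outlying library (n = 8), with a change of -1.67 (SE 0.26, adjusted p = 1.536e-06) over all libraries. Obp99b changed by 1.44 (SE 0.42, adjusted p = 0.007322) and Obp56a by 0.65 (SE 0.17, adjusted p = 0.002827), both higher in older controls. Obp44a changed by -0.75 (SE 0.20, adjusted p = 0.003693). All changes of this comparison include the outlying library among the younger controls, where it had 56960 for Obp44a, and none is given without it.

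At day 7 both drivers had controls, and 9 of 28 members differed (32.1%), against 6.19% of all genes, with 4 higher (3.43%) and 5 lower (2.76%) under the neuronal driver. Obp99a had 5872, 4807 and 4672 with the neuronal driver, against 2847, 1202 and 1564 with the glial driver (change 1.54, SE 0.45, adjusted p = 0.02669). Obp99b had 278, 195 and 283, against 31.3, 39.4 and 31.8 (change 2.83, SE 0.73, adjusted p = 0.008359). Obp56h had 475, 527 and 592, against 1205, 1530 and 1300 (change -1.34, SE 0.30, adjusted p = 0.002334), and Obp83ef had 233, 215 and 189, against 579, 441 and 550 (change -1.29, SE 0.23, adjusted p = 8.722e-05). None of these 4 overlapped between drivers. What else differs between the 2 driver lines is not given.

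Of the rest of the olfactory pathway, 31 genes without an Obp symbol, 8 of 22 tested were higher and 3 lower in glial full-length heads, with a median of 0.28, against 19.3% and 25.1% of all genes. The rises included a10, a secreted antennal protein, at 283 against 26.0 in controls (change 3.40, adjusted p = 1.734e-10), Pbprp5 at 184 against 21.0 (3.21, adjusted p = 1.344e-06), and Jhedup, an odorant-degrading esterase, at 165 against 20.2 (3.08, adjusted p = 4.7e-05). Est-6, an esterase, averaged 13179 against 5663 (1.23, adjusted p = 1.33e-09), and Orco averaged 83.7 against 31.6 (1.15, adjusted p = 0.0004665). The 3 lower genes are not named here, and the antennal neuron list that holds Orco had 1 higher and 1 lower of 7 tested. In glial N-terminal heads 4 of 23 were higher and 3 lower. Among those lower, Os-C, a protein of antennal sensilla, averaged 13.8 against 75.9 in controls (-2.13, adjusted p = 0.0001588). Orco averaged 27.3 against 49.5 (-0.80, adjusted p = 0.004236). The 4 higher genes are not named here, and the antennal neuron list that holds Orco had 2 higher and 2 lower of 7 tested. In neuronal N-terminal heads 1 of 22 was higher and 2 lower, and in neuronal full-length heads 1 of 22 was higher and 3 lower. Of all genes 32.5%, 13.6% and 18.9% were called in these 3 models in that order.

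Members and related genes of the antenna list (11 genes) were called 4 higher and 0 lower of 8 tested in glial full-length heads, against 44.4% of all genes called in either direction. In glial N-terminal heads 1 was higher and 2 lower of 9, against 32.5%. By limma 0 of 9 were called in neuronal N-terminal heads, and 0 of 8 were higher and 2 lower in neuronal full-length heads, against 13.6% and 18.9%. Of 3 male reproductive members, 1 was higher in glial full-length heads, 2 were lower in glial N-terminal heads, and 0 were called in the neuronal models. Male accessory gland genes were near 0, with sums of at most 10.1 in any library.

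Antennal neuron genes were uneven in level. Of 14 markers, 1 of 7 tested was higher and 1 lower in glial full-length heads, with sums of 567 to 997 against 505 to 877 in controls. With the N-terminal fragment in glia, 2 of 7 were higher and 2 lower (475 to 720, against 482 to 839), in neuronal N-terminal heads 1 of 6 was higher and 1 lower (551 to 720, against 477 to 806), and in neuronal full-length heads 1 of 7 was higher and 2 lower (418 to 722, against 629 to 711.4). Several receptor genes were low, with medians of 0 for Or47b, 0.466 for Or22a, 6.38 for Gr63a and 13.0 for Or67d, and of 0.913 for the co-receptor Ir8a. Snmp1, Ir25a and Ir76b of the same list were higher, with medians of 326, 137 and 101, and weigh most in these sums. The part of the number of antennae in the changes above was not tested. Markers of other cell types were called as well. Haemocyte markers were higher in 6 of 6 in glial full-length heads, 4 of 6 in glial N-terminal heads and 2 of 6 in each neuronal model. Gut markers were lower in 8 of 8 tested in glial full-length heads, and 1 was higher and 1 lower of 8 in glial N-terminal heads. Neuron markers were lower in 5 of 8 in glial full-length heads. Photoreceptor markers were higher in 5 of 7 in glial N-terminal heads, and lower in 4 of 7 in glial full-length and 3 of 7 in neuronal N-terminal heads. Of all genes, 19.3% were higher and 25.1% lower in glial full-length heads, and 20.4% and 12.1% in glial N-terminal heads. These shares were 6.03% and 7.53% in neuronal N-terminal heads, and 9.4% and 9.54% in neuronal full-length heads. The part of these cell types in the results was not tested.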

How the data were processed

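Poly(A) RNA of 72 libraries was sequenced after preparation with a strand-keeping kit, per the labels' protocols. The submitters' processing notes name CASAVA 1.8.2, Bowtie 0.12.0, RSEM 1.1.19, DESeq2 and build dm3. The annotation and any use of strand in counting are not given in the sources used here. The deposited signal values are gene estimates that the authors scaled to a 75th percentile of 1000 in each library, as the values themselves show. They are not raw counts, so no count test was the basis of a result.

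In 71 libraries 92.1% to 95.5% of low values were whole multiples of 1 step (tolerance 0.02), which gave the estimated depths. In the other library 5.45% were. Depth limits members whose values are near that of 1 read.

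The limma package 3.58.1 (R 4.3.3) was run on log2(value + 1), with group means, a mean-variance trend and Benjamini-Hochberg adjustment over all genes tested. Genes needed a value of 10 in 3 libraries of the fit. Each model was fitted on its 18 libraries, and models and controls were compared in a fit of 72. The procedure was tested on simulated data. Ages of neuronal full-length libraries follow the age field and protocol, since their mHTT titles name days 7, 9 and 11. Replicate numbers did not pair samples: same-numbered samples correlated above 0.1 in 5 of 36 pairs.

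The members and the gene lists were chosen with earlier results of these data known. Genes named with values were the 8 members of highest mean, and those with the largest called changes whose higher group averaged 100 or more. Obp56b, Obp47a and Obp83g lie outside this rule and were named after their values were seen. Levels between genes were divided by exonic length.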

Additional observations from a re-analysis of the deposited data

Results flagged for a closer look

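Several changes differed between models in the fit of 72 libraries, each tested as a difference of changes with limma. Between drivers with the full-length protein, neuronal minus glial, the difference was 1.41 for Obp44a, -2.49 for Obp99a and -1.18 for Obp56a. With the N-terminal fragment it was 2.19 for Obp56h, 1.71 for Obp44a, -3.02 for Obp99a and -2.20 for Obp99b. Between glial constructs, full-length minus N-terminal, it was 2.38 for Obp99a, 1.99 for Obp56g and -1.61 for Obp99b. Between neuronal constructs it was 2.90 for Obp99a and 1.70 for Obp56a.

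Changes also differed between ages within a model. In glial full-length heads this held for Obp99b (adjusted p = 0.01972) and Obp56d (adjusted p = 0.04257). In neuronal full-length heads it held for Obp99d (adjusted p = 0.01967) and Obp83ef (adjusted p = 0.02887), both from limma's test over the 3 ages.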

How the results depend on the processing

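The directions of Obp44a in both glial models and of Obp99a in all 4 models held under every setting run. Counts below are of members alone. The share of all genes called under a setting is given only where stated, so these counts are not read as results about the members. Fitting all 72 libraries gave, for the neuronal N-terminal model, 8 members over the ages, 3 at day 9, 15 at day 11 and 2 that differed between ages, and 0 that differed between ages in glial full-length heads. With the first part of the description as covariate, neuronal N-terminal counts were 14 over the ages, 10 at day 7, 10 at day 9 and 6 between ages. Glial N-terminal day 7 then gave 2, neuronal full-length day 20 gave 1 and the neuronal constructs differed for 5. The libraries of prefix H57779 alone gave 10, 4, 5 and 4 for the neuronal N-terminal model over the ages, at days 7 and 9 and between ages, 3 at day 7 of glial N-terminal, and 1 and 7 at days 20 and 22 of neuronal full-length. Requiring a mean of 100 gave 3 at neuronal N-terminal day 11 and 4 between ages in glial full-length heads. No filter gave 5 at neuronal full-length day 18 and 1 between ages in glial full-length heads. Fitting the 6 libraries of an age alone gave 8, 9 and 0 at neuronal N-terminal days 7, 9 and 11, 8 and 0 at neuronal full-length days 20 and 22, 13 at glial full-length day 22 and 2 at glial N-terminal day 7. Fitting the compared groups alone gave 1 for neuronal controls and 9 between drivers for the N-terminal fragment. Quantile normalisation gave 8 over the ages and 1 at each of days 7 and 9 in the neuronal N-terminal model, 5 between neuronal constructs and 1 between ages in neuronal full-length heads. With the replicate block, which the numbers do not warrant, 1 member differed between ages in glial full-length and 1 in neuronal full-length heads. Without the farthest library of each model, counts were 14, 8, 10, 8 and 3 for neuronal N-terminal (over the ages, days 7, 9 and 11, between ages), 9, 6, 7 and 6 for neuronal full-length (over the ages, days 20 and 22, between ages), 11 at glial N-terminal day 7 and 6 between neuronal constructs. Of all genes, 36.8%, 14.2%, 23.8% and 18.6% were then called in neuronal N-terminal heads (over the ages, days 7, 9 and 11). In neuronal full-length heads 35.7%, 14.9% and 13.9% were (over the ages, days 20 and 22).

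Small changes that were not called turned sign, and some were then called: Obp57c in neuronal N-terminal heads with the covariate (adjusted p = 0.01015) and without the farthest library (adjusted p = 0.008971), and Obp56d there with quantile normalisation (adjusted p = 0.02171). In neuronal N-terminal heads Obp56d was 0.076, 0.082, 0.36 and 0.095 with the covariate, the prefix alone, quantile normalisation and the farthest library left out, Obp56g was 0.15, 0.11, 0.084 and 0.15, and Obp57c was 0.26, 0.23, 0.10 and 0.25. In neuronal full-length heads Obp44a was 0.046 with the prefix alone and 0.11 without the farthest library, and Obp57c was 0.038 with the prefix alone. Obp99c in glial N-terminal heads was -0.055 with median-ratio rescaling, -0.046 with quantile normalisation, -0.015 with the covariate and -0.11 without the farthest library. Obp56e in glial full-length heads was -0.17 with quantile normalisation. The cause was not tested.

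Leaving out 1 library at a time moved the counts over these ranges: glial N-terminal day 7, 2 to 11; glial full-length between ages, 1 to 5; neuronal N-terminal 4 to 14 over the ages, 0 to 8, 0 to 10 and 4 to 15 at days 7, 9 and 11, and 0 to 3 between ages. The 14 over the ages and 15 at day 11 came where 36.8% and 46.8% of all genes were called, against 13.6% and 7.77% with all libraries. For neuronal full-length the ranges were 4 to 9 over the ages, 0 to 4, 1 to 6 and 2 to 7 at days 18, 20 and 22, and 0 to 6 between ages. Neuronal constructs differed for 2 to 6 and day 7 controls for 5 to 10. Uncalled changes ranged from -0.11 to 0.077 for Obp99c in glial N-terminal heads, -0.011 to 0.094 for Obp56e in glial full-length heads and -0.10 to 0.11 for Obp44a in neuronal full-length heads. In neuronal N-terminal heads they ranged from -0.091 to 0.23 for Obp56e, -0.10 to 0.095 for Obp56d, -0.16 to 0.25 for Obp57c and -0.13 to 0.15 for Obp56g.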
